A study of Mus musculus with 18 samples.

Results

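The naive pluripotency factors described here are 7 genes of mouse ESCs, namely Klf4, Tbx3, Zfp42 (also called Rex1), Prdm14, Esrrb, Nr0b1 (Dax1) and Dppa3 (Stella). They were selected by gene symbol, and all 7 were among the 10965 different genes of the deposited table. The study named these genes from the same samples, so their change over time is a description and not independent evidence of its direction. Expression was measured by RNA-seq in 18 libraries from CD1 mouse ESCs, and is given as TPM, the reads of a gene scaled to its length and to the size of the library. Ctrl cells were Zeb2 fl/fl, in which the gene for the transcriptional repressor Zeb2 is intact and flanked by loxP sites, and Zeb2 KO cells were Zeb2 -/-. Per the methods, the CD1 KO lines were made from the Ctrl ESCs by nucleofection of a Cre vector with blasticidin selection. The sources used here do not say which lines or clones were sequenced. At d0 the cells were ESCs in 2i + LIF, which combines the MEK inhibitor PD0325901, the GSK3 inhibitor CHIR99021 and the cytokine LIF. At d4 they had formed EBs in medium with 15% FBS and without 2i + LIF, and at d6 the EBs had been in N2B27 medium with 500 nM retinoic acid (RA) since d4, as the early part of neural differentiation (ND). Each genotype had 3 libraries on each of the 3 days, which the study describes as independent experiments.

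Naive pluripotency is the state of the preimplantation epiblast, which mouse ESCs keep in 2i + LIF. LIF acts through STAT3 on Klf4 and related factors, GSK3 inhibition relieves repression of Esrrb by Tcf7l1, and MEK inhibition keeps the differentiation signal of FGF and ERK low. These genes are known to be shut down once 2i + LIF is withdrawn. Klf4, Tbx3 and Esrrb are transcription factors that sustain self-renewal, Zfp42 is a zinc finger protein widely used as a reporter gene of the naive state, and Nr0b1 is an orphan nuclear receptor that binds Oct4. Prdm14 represses FGF signaling and DNA methyltransferase genes, and Dppa3 is a maternal factor that binds Uhrf1, a protein needed to maintain DNA methylation. Prdm14 and Dppa3 are also markers of primordial germ cells.

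The reads on the genes of the table, recovered from the TPM values, ranged from 9622622 to 15617675 per library. A single read corresponded to 0.238 to 0.371 TPM where the gene was 1 kb long. In the order of the 3 days, Zeb2 itself measured 0.129 ± 0.00754, 1.36 ± 0.121 and 7.66 ± 0.138 TPM in Ctrl (mean ± SD, n = 3). In Zeb2 KO it measured 0.0216 ± 0.00526, 0.164 ± 0.0388 and 0.681 ± 0.0763 TPM, lower on each day. At d0, genes of 3 chromosomes stood above the rest in the difference between genotypes. Their median log2 FC (KO minus Ctrl) was 0.33 on chromosome 8, 0.36 on chromosome 12 and 0.08 on chromosome 6. The median was -0.07 over all genes and -0.17 to -0.05 on the other chromosomes. In the same order these medians were -0.20, -0.18 and -0.24 at d4 and -0.15, -0.18 and -0.17 at d6, when they did not stand above the rest. Whether the KO or the Ctrl libraries were shifted at d0 was not tested. Changes from d0 within either genotype may hold this shift as well. Zfp42 lies on chromosome 8, Esrrb on chromosome 12 and Dppa3 on chromosome 6, and their values at d0 are therefore given beside those of their neighbours. The neural markers in the table (9 of 9 listed) summed to 651 to 700 TPM in Ctrl at d6 and to 103 to 119 TPM in KO, and the fibroblast markers (3 of 6 measured), which would mark feeder cells, to 1.19 to 4.45 TPM over the d0 libraries.

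The loci are given in GRCm38 with GENCODE M21 coordinates. Klf4 spans chr4:55527143-55532466 on the minus strand, Tbx3 chr5:119670669-119684724 on the plus strand, Zfp42 chr8:43295063-43306980 on the minus strand and Prdm14 chr1:13113457-13127163 on the minus strand. Esrrb spans chr12:86361117-86521628, Nr0b1 chrX:86191764-86195947 and Dppa3 chr6:122626410-122630272, all on the plus strand. Zeb2 binds the sequence CACCT and the E-box CACCTG that contains it, so both were searched on both strands in the 250 bases before each transcription start, in 32851 RefSeq promoters (GRCm38.p6). Of the 7 genes, 4 matched this table with 5 start sites, and 4 of these promoters are shown because they hold a match (Zfp42, Nr0b1, Esrrb at its downstream start) or because the gene moved the other way in KO at d6 (Klf4). Capitals mark CACCT or its complement AGGTG, and in Zfp42 also the octamer ATTTGCAT, the complement of ATGCAAAT that Oct4 binds. Each is written 5′ to 3′ on the strand of its gene, and comes from chr8:43307010-43307259 (Zfp42), chrX:86191525-86191774 (Nr0b1), chr12:86421394-86421643 (Esrrb) and chr4:55532476-55532725 (Klf4).
Zfp42: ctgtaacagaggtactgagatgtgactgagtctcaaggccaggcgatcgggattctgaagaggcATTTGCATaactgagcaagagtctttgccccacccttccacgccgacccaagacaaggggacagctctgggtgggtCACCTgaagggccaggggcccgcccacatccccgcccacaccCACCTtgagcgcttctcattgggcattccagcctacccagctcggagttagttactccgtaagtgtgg
Nr0b1: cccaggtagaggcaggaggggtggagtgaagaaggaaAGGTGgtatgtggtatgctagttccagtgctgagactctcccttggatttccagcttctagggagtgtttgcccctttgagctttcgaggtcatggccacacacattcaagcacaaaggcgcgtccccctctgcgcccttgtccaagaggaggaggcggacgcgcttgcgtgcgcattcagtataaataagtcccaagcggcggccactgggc
Esrrb: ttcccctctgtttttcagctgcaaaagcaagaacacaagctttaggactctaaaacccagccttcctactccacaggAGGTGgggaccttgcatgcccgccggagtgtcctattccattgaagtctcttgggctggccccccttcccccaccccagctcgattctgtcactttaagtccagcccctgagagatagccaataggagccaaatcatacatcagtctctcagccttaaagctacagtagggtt
Klf4: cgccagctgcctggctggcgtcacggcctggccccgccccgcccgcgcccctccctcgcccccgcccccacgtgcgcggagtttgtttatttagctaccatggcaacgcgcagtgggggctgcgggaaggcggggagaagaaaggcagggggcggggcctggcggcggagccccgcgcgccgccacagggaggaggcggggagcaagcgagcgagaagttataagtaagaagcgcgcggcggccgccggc

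Positions are counted back from the transcription start as negative numbers. Zfp42 held 2 matches, a CACCTG from position -110 and a CACCT from position -68, 36 bases apart. CACCT was present in 45.97% of all promoters of this length and CACCTG in 17.22%, while a CACCTG with a separate CACCT within 45 bases was present in 3.528%. Nr0b1 held 1 match from position -213 and Esrrb 1 from position -173 of its downstream start, whereas the window of Klf4 and that of the upstream start of Esrrb held none. The octamer of Zfp42 lay at positions -186 to -179 and was present in 1.601% of all promoters. Zfp42 also held CCACACCC, the complement of GGGTGTGG that Klf4 binds (3.196% of all promoters), at positions -75 to -68, where it shares 1 base with the second CACCT. Neither TCAAGGTCA, bound by Esrrb (0.3866% of all promoters), nor AGGTGTGA, bound by T-box factors (1.12%), was found in the 5 windows. A match describes letters in these windows and does not show binding. The study searched a longer stretch on both sides of the start, so these matches cannot be set against its motif analysis. A relation of the matches to the direction of the genes at d6 was not tested.

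All 7 genes were expressed at d0 in both genotypes, from 85.2 TPM for Tbx3 to 1034 TPM for Zfp42 over the 6 libraries. In Ctrl, Zfp42 was highest with 851 ± 44.9 TPM (mean ± SD, n = 3, as in all values of this form), followed by Esrrb with 378 ± 16.6. Nr0b1 with 288 ± 11.4 TPM and Dppa3 with 287 ± 7.19 overlapped, and Klf4 (202 ± 5.04), Prdm14 (142 ± 8.24) and Tbx3 (90.6 ± 5.01) followed without overlap between neighbours in this order. The order depends on the gene length used, and the length behind the deposited TPM was not that of the merged exons for every gene. The length behind the TPM was 14096 bases for Tbx3 against 6624 bases of merged exons, 11522 against 6047 for Esrrb and 4410 against 3049 for Klf4, but within 5% for the other members (1800 against 1881 for Zfp42). Rescaled to merged exons, Ctrl cells at d0 had 819 ± 40.6 TPM of Zfp42, 726 ± 30.8 of Esrrb and 194 ± 10.3 of Tbx3, and Klf4 (294 ± 6.63), Nr0b1 (289.6 ± 10.6) and Dppa3 (289 ± 6.42) overlapped. Ratios of the TPM of 1 gene between groups do not depend on this length, and deposited TPM are used to compare groups. The log2 FC, fitted on log2(TPM + 1), depend on it for genes of low TPM, where the added 1 weighs more.

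**Figure D1:**
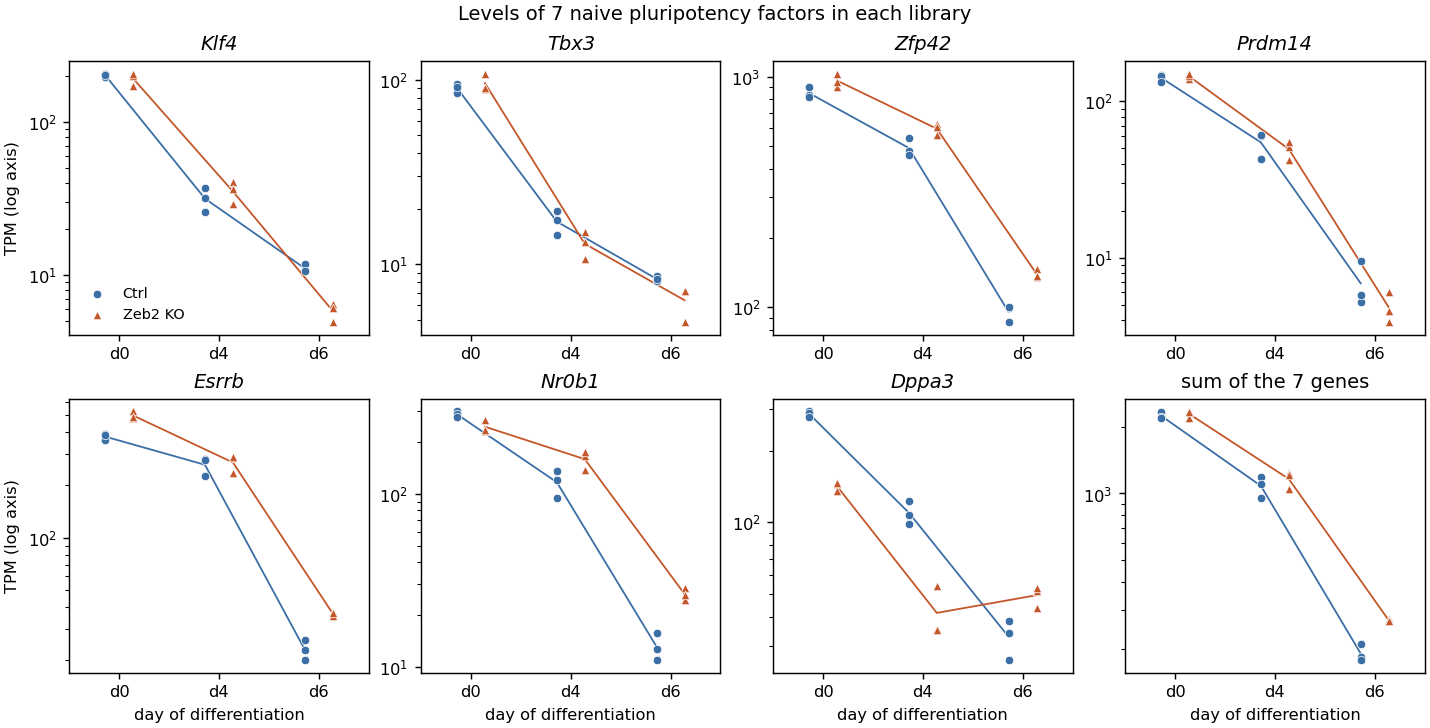
Deposited TPM (log axis) of each of the 7 genes, and of their sum, in every library at d0, d4 and d6, with 1 point per library and the genotypes side by side. All 7 genes were lower at d6 than at d0 in every library of both genotypes, and the KO points of Dppa3 lie below the Ctrl points at d0 and d4 (35.3 to 53.7 TPM against 98.5 to 123 at d4) but above them at d6 (43.4 to 53.1 against 26.2 to 38.3).

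In Ctrl cells, which give the course of these genes after withdrawal of 2i + LIF, all 7 genes fell by d4, fell again from d4 to d6, and at d6 retained 4.53% to 11.5% of their d0 level. The 2 steps were of unequal size among the genes. Klf4 and Tbx3 made most of their fall by d4, when 15.6% and 18.8% of the d0 level remained. Esrrb and Zfp42 made most of theirs after d4, with 69.0% and 57.8% left at d4, a split that depends on the setting as given below. Prdm14, Nr0b1 and Dppa3 lay between, with 38.6%, 40.5% and 38.3% left at d4. The 7 genes called lower compare with 22.3% of all genes called lower at d4 than at d0, 21.5% from d4 to d6 and 25.8% from d0 to d6 (limma on log2(TPM + 1), p adjusted by Benjamini-Hochberg across the 10965 genes, threshold 0.01). In bulk RNA, a smaller share of cells that express a gene cannot be told apart from less RNA in each cell.

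Klf4, a target of LIF and STAT3, went from 207, 197 and 202 TPM at d0 to 31.8, 37.0 and 25.6 at d4 and to 10.7, 11.7 and 10.7 at d6 in the 3 Ctrl libraries. Its log2 FC was -2.66 from d0 to d4 and -1.42 from d4 to d6, so that 65.2% of its fall on the log2 scale was reached by d4. Tbx3, the T-box factor, went from 90.6 ± 5.01 to 17.1 ± 2.54 and 8.33 ± 0.275 TPM, with log2 FC of -2.35 and -0.94 and 71.4% of the fall by d4. These were the earliest falls among the 7 genes. Esrrb, the nuclear receptor, went from 391, 359.5 and 384 TPM (d0) through 281, 277 and 224 (d4) to 22.7, 26.1 and 19.9 (d6). It therefore fell by 0.54 on the log2 scale by d4 and by 3.46 from d4 to d6, with 13.5% of the fall by d4, the lowest share of the 7. Zfp42 fell by 0.79 by d4 and by 2.35 from d4 to d6 (25.2% by d4), from 851 ± 44.9 to 492 ± 44.2 and 95.4 ± 8.004 TPM. Over 30 other settings of the fit the log2 FC from d0 to d4 in Ctrl ranged from -1.44 to -0.44 for Esrrb. It ranged from -1.74 to -0.64 for Zfp42 and from -1.61 to -1.17 for Nr0b1, so the shares by d4 depend on the setting. The lowest values of Esrrb and Zfp42 were those with the median of genes within 5 Mb subtracted. In KO the same settings gave -1.07 to -0.80 for Esrrb and -1.04 to -0.62 for Zfp42. The part of the regional differences at d0 in these falls was not tested. Prdm14 (142 ± 8.24, 54.7 ± 10.3 and 6.85 ± 2.37 TPM) and Nr0b1 (288 ± 11.4, 116 ± 20.9 and 13.03 ± 2.35 TPM) had their larger step after d4 as well, with log2 FC of -2.85 and -3.06 against -1.37 and -1.31 before it. Dppa3 fell by 1.38 by d4 and by 1.72 after it, from 287 ± 7.19 to 109.8 ± 12.4 and 32.9 ± 6.15 TPM. All these steps were called in Ctrl with an adjusted p by limma of at most 0.000149, and none of the libraries of neighbouring days overlapped, as in 78.5% of all genes for d0 and d4 and 65.2% for d4 and d6.

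In Zeb2 KO cells all 7 genes fell by d4 as well, and 6 of them fell again from d4 to d6, while Dppa3 did not. At d6 the KO libraries retained 3.03% of the d0 level of Klf4, 3.33% of Prdm14, 6.64% of Tbx3, 7.36% of Esrrb, 10.8% of Nr0b1, 14.5% of Zfp42 and 34.7% of Dppa3. The share of all genes called lower in KO was 20.9% at d4 against d0, 19.9% at d6 against d4 and 27.4% at d6 against d0. Klf4 and Tbx3 were again at the lowest shares of their d0 level at d4, with 18.3% and 13.4%, and Nr0b1 (64.9%), Zfp42 (61.8%) and Esrrb (53.8%) at the highest. In KO, the libraries of Dppa3 held 145, 135 and 146 TPM on d0, 53.7, 35.5 and 35.3 on d4, and 43.4, 51.4 and 53.1 on d6. Its d4 and d6 libraries overlapped, and the log2 FC from d4 to d6 was 0.27 (95% CI -0.05 to 0.58, adjusted p by limma 0.145). Without KO d4 library 1, the highest of its group, this value was 0.46 (adjusted p by limma 0.00773).

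**Figure D2:**
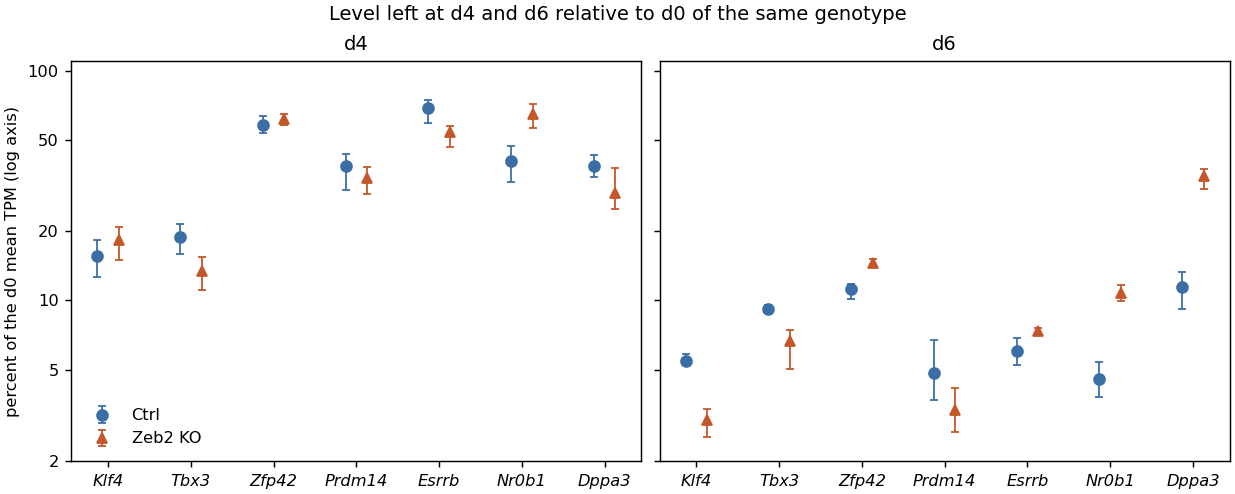
Mean TPM at d4 and d6 as a percentage of the d0 mean of the same genotype for each of the 7 genes, with bars from the lowest to the highest library. Klf4 and Tbx3 are below 20% at d4 in both genotypes, and at d6 the KO values are higher than the Ctrl values for Dppa3 (34.7% against 11.5%), Nr0b1 (10.8% against 4.53%), Zfp42 and Esrrb and lower for Klf4 (3.03% against 5.47%), Tbx3 and Prdm14.

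At d0, before differentiation, 2 of the 7 genes differed between Zeb2 KO and Ctrl cells, Dppa3 lower and Esrrb higher in KO, against 27.0% of all genes called (10.6% higher, 16.4% lower). Dppa3 measured 293, 288 and 279 TPM in the Ctrl libraries against 145, 135 and 146 in the KO libraries, whose mean was 49.5% of that of Ctrl. All KO libraries lay far below all Ctrl libraries, and the log2 FC was -1.01 (SE 0.15, adjusted p by limma 6.09e-05). Esrrb was at 391, 359.5 and 384 TPM in Ctrl against 482, 526.5 and 489.9 in KO. All KO libraries were above all Ctrl libraries, with a log2 FC of 0.40 (SE 0.10, adjusted p by limma 0.00519). The 69 other genes of the table within 5 Mb of Esrrb on chromosome 12 had a median log2 FC of 0.55 at d0, with 45 called higher and 2 lower, and 43 of them were at or above the value of Esrrb. Relative to the median of this region Esrrb was at -0.17 (adjusted p 0.257), and its call was also lost without any 1 of the 6 d0 libraries (log2 FC 0.36 to 0.42, adjusted p by limma 0.0109 to 0.0246).

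The other 5 genes were not called at d0. Zfp42 was at 901, 837 and 814 TPM in Ctrl against 905, 952.5 and 1034 in KO, without overlap (as for 51.5% of all genes), and its log2 FC was 0.18 (95% CI 0.02 to 0.34, adjusted p by limma 0.0746). The 36 genes within 5 Mb of it on chromosome 8 had a median of 0.34, with 15 called higher and none lower, and relative to this median Zfp42 was at -0.16. Nr0b1 was at 299, 288 and 276 TPM in Ctrl and 232, 265 and 235 in KO, again without overlap, with a log2 FC of -0.24 (95% CI -0.52 to 0.04, adjusted p by limma 0.168). Klf4 (log2 FC -0.08, 95% CI -0.36 to 0.21), Tbx3 (0.08, -0.22 to 0.38) and Prdm14 (0.03, -0.36 to 0.42) overlapped between the genotypes, and these intervals allow differences of up to 0.36 to 0.42 on the log2 scale. The 82 genes within 5 Mb of Dppa3 on chromosome 6 had a median of 0.11, opposite in sign to Dppa3, and 1 of them was at or below its value.

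At d4, Dppa3 was lower in Zeb2 KO and Nr0b1 and Zfp42 were higher, while 45.5% of all genes were called (12.7% higher, 32.7% lower). Dppa3 was at 123, 108 and 98.5 TPM in Ctrl and 53.7, 35.5 and 35.3 in KO (89 to 141 reads), 37.8% of the Ctrl mean. The groups were well apart, with a log2 FC of -1.40 (SE 0.15, adjusted p by limma 1.1e-06). Nr0b1 was at 136, 119.7 and 94.1 TPM in Ctrl against 164, 137 and 174 in KO, so that the lowest KO library was just above the highest Ctrl library. Its log2 FC was 0.45 (SE 0.13, adjusted p by limma 0.00823). Zfp42 was at 541, 477.5 and 456 TPM in Ctrl and 623, 560.5 and 604 in KO, without overlap (as for 65.7% of all genes), with a log2 FC of 0.28 (SE 0.08, adjusted p by limma 0.00526).

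The calls of Nr0b1 and Zfp42 at d4 were close to the threshold. That of Zfp42 was lost without Ctrl d4 library 2 (log2 FC 0.26, adjusted p 0.0217) or 3 (0.23, 0.0326) and without KO d4 library 1 (0.25, 0.0260) or 3 (0.27, 0.0178), all by limma. That of Nr0b1 was lost without Ctrl d4 library 2 (0.48, adjusted p 0.0160) or 3 (0.30, 0.0570), without KO d4 library 1 (0.42, 0.0304) or 3 (0.38, 0.0399), and with an adjusted p of 0.0101 to 0.0109 and an unchanged log2 FC without any of Ctrl d0 libraries 1, 2 and 3, KO d0 libraries 1 and 3, Ctrl d6 library 3 and KO d6 library 3. With quantile normalization Zfp42 was at 0.15 (adjusted p by limma 0.102), and in the fit to only the d4 groups both calls were lost (adjusted p by limma 0.0143 for Zfp42 and 0.0266 for Nr0b1). Without the intensity trend of the test they were lost as well (0.01004 and 0.0124), and with the regional median subtracted that of Nr0b1 was (0.40, 0.0211). Tbx3 was not called, with 17.1 ± 2.54 TPM in Ctrl against 12.9 ± 2.11 in KO, a log2 FC of -0.38 (adjusted p by limma 0.0325) and libraries that overlapped. Klf4 (0.15, adjusted p 0.333), Esrrb (0.04, 95% CI -0.17 to 0.26) and Prdm14 (-0.13, adjusted p 0.56) overlapped between genotypes as well. The regions of Esrrb and Zfp42, raised at d0, had medians of -0.26 and -0.29 at d4.

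At d6, 5 of the 7 genes differed, beside 52.3% of all genes (17.9% higher, 34.3% lower). Nr0b1, Esrrb, Dppa3 and Zfp42 were higher in Zeb2 KO and Klf4 was lower. Nr0b1 was at 10.9, 15.5 and 12.7 TPM in Ctrl against 28.6, 24.2 and 26.0 in KO, 202% of the Ctrl mean, with a log2 FC of 0.97 (SE 0.13, adjusted p by limma 8.84e-06). Esrrb was at 22.7, 26.1 and 19.9 TPM in Ctrl and 35.4, 37.7 and 37.2 in KO, with a log2 FC of 0.67 (SE 0.10, adjusted p by limma 2.84e-05). In both genes every KO library was above every Ctrl library, and the same was true of Zfp42, with 99.7, 100.2 and 86.1 TPM in Ctrl against 146.5, 135 and 137 in KO. The log2 FC of Zfp42 was 0.55 (SE 0.08, adjusted p by limma 1.15e-05).

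Dppa3, lower in KO at d0 and d4, was higher in KO at d6, with 26.2, 38.3 and 34.2 TPM in Ctrl and 43.4, 51.4 and 53.1 in KO. The groups did not overlap, as for 63.7% of all genes, and the log2 FC was 0.58 (SE 0.15, adjusted p by limma 0.00275). This call was lost without Ctrl d6 library 1, the lowest (log2 FC 0.43, adjusted p by limma 0.0197), without KO d6 library 2 (0.55, 0.0116) or 3 (0.53, 0.0137), and in the fit to only the d6 groups (0.0121). Klf4 was the only one of the 7 genes called lower at d6, with 10.7, 11.7 and 10.7 TPM in Ctrl (126 to 187 reads) and 6.43, 6.10 and 4.89 in KO (71 to 93 reads). All KO libraries were below all Ctrl libraries, with a mean of 52.7% of Ctrl and a log2 FC of -0.83 (SE 0.13, adjusted p by limma 5.07e-05). Tbx3, with 8.09 to 8.63 TPM in Ctrl and 4.85 to 7.17 in KO, did not overlap either but did not pass the threshold (log2 FC -0.35, 95% CI -0.66 to -0.05, adjusted p by limma 0.0392). Prdm14, with 35 to 88 reads in the Ctrl libraries and 32 to 48 in the KO libraries, overlapped (log2 FC -0.41, 95% CI -0.80 to -0.02, adjusted p by limma 0.0643).

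The sum of the 7 genes was 190.4 ± 16.9 TPM in Ctrl and 269 ± 3.89 in KO at d6, and 2237 ± 84.0 and 2282 ± 80.0 at d0, with Zfp42 as the largest part of it. Over all genes the median log2 FC (KO minus Ctrl) amounted to -0.07, -0.16 and -0.14 on the 3 days, and over the 7 members to 0.03, 0.04 and 0.55. Median-ratio rescaling of the libraries moved the median over all genes to 0.0015 at d4 and 0.01 at d6, and the split of called genes from 1397 higher and 3591 lower to 2300 and 2335 at d4, from 1967 and 3764 to 2804 and 2811 at d6, and from 1157 and 1803 to 1365 and 1551 at d0. Under this rescaling the same members were called as without it, with log2 FC at d6 of 1.12 for Nr0b1, 0.83 for Esrrb, 0.74 for Dppa3, 0.71 for Zfp42 and -0.68 for Klf4.

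**Figure D3:**
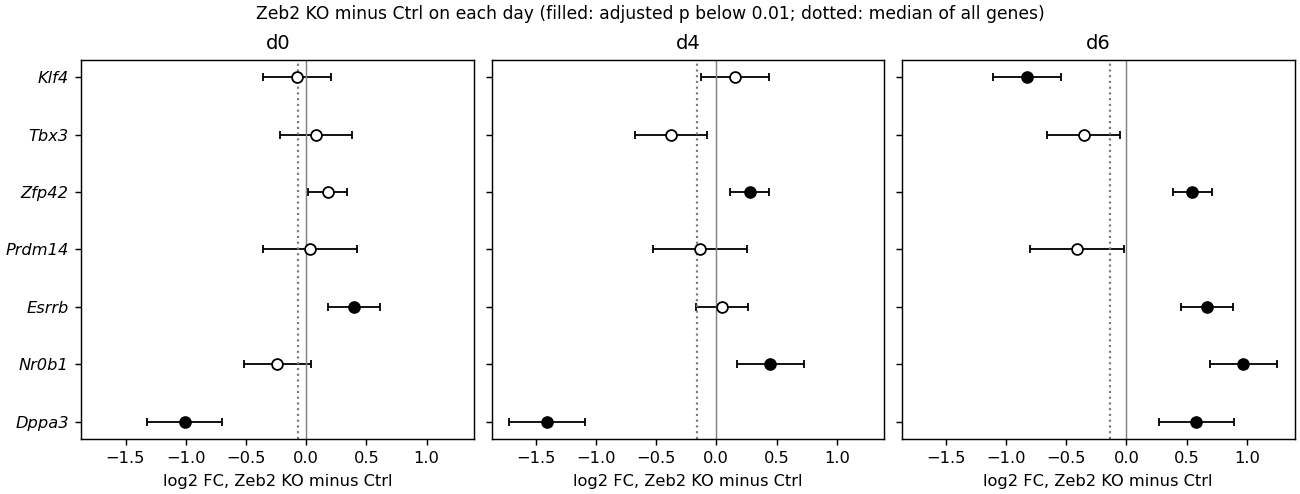
Log2 FC (KO minus Ctrl, on log2(TPM + 1)) of the 7 genes at d0, d4 and d6 with 95% confidence intervals, where filled symbols passed an adjusted p below 0.01 and the dotted lines give the median over all genes. Dppa3 goes from -1.01 and -1.40 to 0.58, Nr0b1 from -0.24 through 0.45 to 0.97, and Klf4 is at -0.83 at d6.

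Whether the course itself differed between the genotypes was tested as the change in KO minus the change in Ctrl. From d0 to d6 this difference was called for 4 of the 7 genes, against 43.7% of all genes: Dppa3 (1.59, adjusted p by limma 9.89e-06), Nr0b1 (1.21, 4.68e-05) and Zfp42 (0.37, 0.00836), which fell less in KO, and Klf4 (-0.75, 0.00297), which fell more. Those of Esrrb (0.27, adjusted p by limma 0.122), Tbx3 (-0.44, 0.0762) and Prdm14 (-0.44, 0.163) were not called. From d0 to d4, 36.1% of all genes and of the 7 only Nr0b1 were called, with 0.69 (adjusted p by limma 0.00604), since Nr0b1 fell by 1.31 in Ctrl and by 0.62 in KO. From d4 to d6, a contrast added after the data were seen, 13.4% of all genes were called, and among the 7 these were Dppa3 (1.98, adjusted p by limma 4.39e-06), Klf4 (-0.98, 0.00121) and Esrrb (0.63, 0.00477). Joint over both days, a moderated F test called Dppa3 (adjusted p 1.77e-06), Nr0b1 (0.000146), Klf4 (0.000733) and Esrrb (0.00451) but not Zfp42 (0.0185), Tbx3 (0.0928) or Prdm14 (0.316), against 48.7% of all genes.

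The differences of Dppa3 from d0 to d6 and from d4 to d6 and that of Nr0b1 from d0 to d6 were kept under each of 30 other settings, which include leaving out any 1 library. That of Zfp42 from d0 to d6 was lost under 13 of them (adjusted p up to 0.0256), among them the fits without Ctrl d0 library 1 or 2, Ctrl d4 library 2, Ctrl d6 library 3, KO d0 library 1 or 2, KO d4 library 3 or any KO d6 library (0.30 to 0.39). That of Nr0b1 from d0 to d4 was lost without Ctrl d0 library 1 or 2, Ctrl d4 library 3, KO d0 library 1 or 3 or KO d4 library 1 or 3 (0.54 to 0.69, adjusted p by limma 0.0129 to 0.0177). That of Esrrb from d4 to d6 was lost without Ctrl d4 library 1 or 2, Ctrl d6 library 1 or 3, KO d4 library 2 or KO d6 library 2 (0.53 to 0.62, adjusted p by limma 0.0110 to 0.0156), and its F test without any of these but Ctrl d6 library 1 (adjusted p 0.0103 to 0.0141). With the regional median subtracted, Esrrb from d0 to d6 (1.10, adjusted p by limma 2.15e-05) and Zfp42 from d0 to d4 (0.70, 0.000258) were called, and Esrrb from d4 to d6 was not (0.60, 0.0106). The difference of Klf4 from d0 to d6 was lost with this subtraction (-0.59, adjusted p by limma 0.0246), with a pseudocount of 5 (-0.50, 0.0156), with quantile normalization (-0.48, 0.0405) and with voom on the recovered reads (-0.81, 0.0114).

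Genes beside the members moved with some of them and not with others. Within 250 kb of Zfp42 the table held Triml1 and Triml2, both higher in KO at d0 (log2 FC 0.74 and 0.73), when the median of the region was also higher in KO. Both were higher at d6 as well (1.14 and 0.84, adjusted p by limma 1.84e-05 and 4.05e-05). Dppa3 lies in a cluster of pluripotency genes with Nanog, a core pluripotency factor, Gdf3, a Nodal-related ligand, the RNA editing enzyme gene Apobec1 and the glucose transporter gene Slc2a3. At d6 Nanog (1.42), Gdf3 (1.63) and Apobec1 (1.24) were called higher in KO together with Dppa3, and Slc2a3 was not called (0.09). At d4, when Dppa3 was lower, Slc2a3 (-1.38), Rimklb (-0.66) and Necap1 (-0.28) were called lower as well, beside 32.7% of all genes. Gdf3 was higher (0.34), and Nanog (0.18) and Apobec1 (-0.05) were not called. At d0 Rimklb, 128 kb away, was at -1.09, close to the -1.01 of Dppa3, and Apobec1 (-0.56, adjusted p by limma 0.00568) and Slc2a3 (-0.34, 0.000363) were called lower as well, while Gdf3, 16.3 kb away, was at 0.54. The 5 genes within 250 kb of Esrrb included none called higher at d6, and Vash1, an angiogenesis inhibitor gene, was called lower on all 3 days (-0.58, -1.67 and -2.42). Ncoa2, a nuclear receptor coactivator gene beside Prdm14, was called lower at d4 (-0.76) and d6 (-0.87), Rad23b beside Klf4 was at -0.19 at d6, and no gene of the table lay within 250 kb of Tbx3 or Nr0b1.

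**Figure D4:**
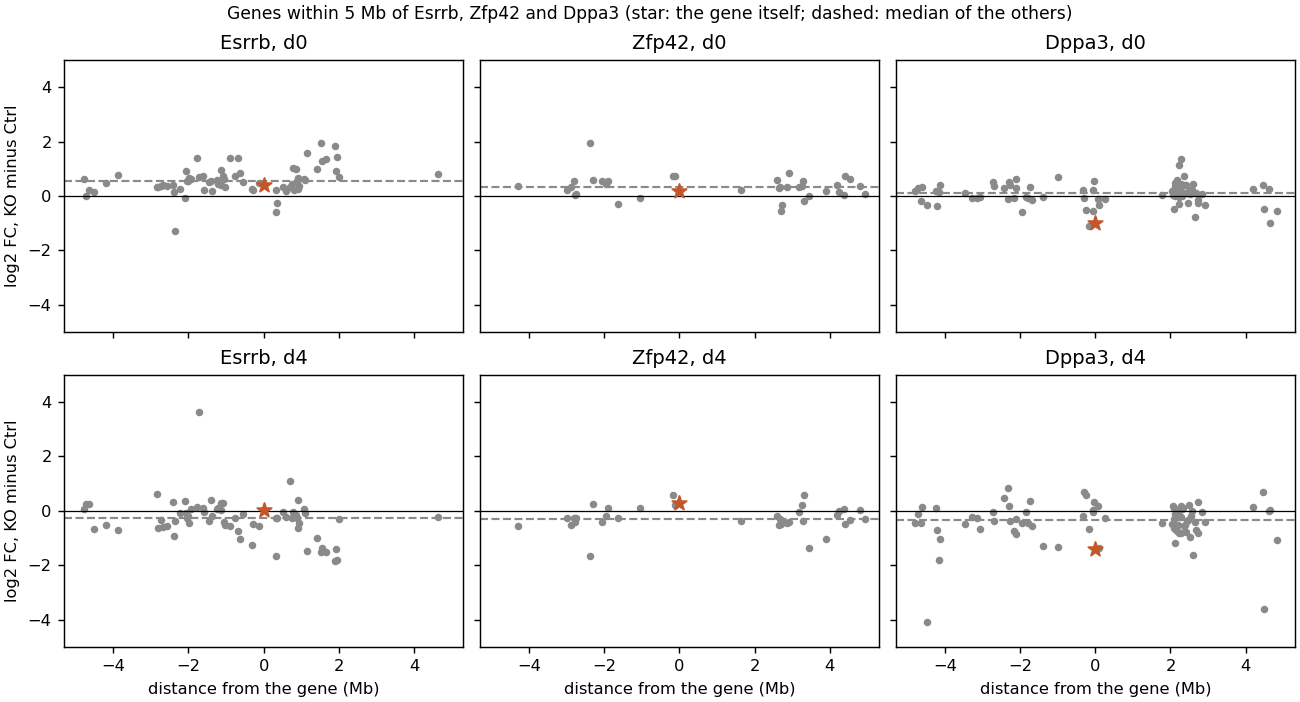
Log2 FC (KO minus Ctrl) at d0 and d4 of the table's genes within 5 Mb of Esrrb, Zfp42 and Dppa3 against distance from the gene, where the star is the gene itself and the dashed line the median of the region. At d0 the medians around Esrrb and Zfp42 are 0.55 and 0.34 and at d4 -0.26 and -0.29, while Dppa3 lies below its region (medians 0.11 and -0.32) on both days.

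Reads of 36 bases can be shared between a gene and its copies, and this concerned 2 of the members. Of the 36-base stretches of Dppa3 transcripts, 26.05% also occur in transcripts of other genes, nearly all of them in Dppa3-ps, a processed copy at chrX:37625647-37626097, and 12.04% of those of Zfp42 occur in Zfp42-ps1. For the other 5 genes the share was 0% to 1.28%. Dppa3-ps measured 215 ± 22.5 TPM in Ctrl and 102 ± 15.5 in KO on d0. These values were 83.2 ± 19.95 and 37.9 ± 6.21 on d4, and 27.6 ± 4.38 and 35.5 ± 7.05 on d6. Its log2 FC on the 3 days was -1.07, -1.10 and 0.35 (the last with an adjusted p by limma of 0.111), next to -1.01, -1.40 and 0.58 for Dppa3. Which of the copies the reads came from cannot be told apart where the sequence is shared.

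Most of a list of 14 further genes of the naive network fell as well, though less than the members by the median. From d0 to d6, 13 of the 14 were called lower in Ctrl and 13 in KO, against 25.8% and 27.4% of all genes, and Gbx2 rose in Ctrl. The median log2 FC of this change was -3.08 in Ctrl and -2.72 in KO, against -4.00 and -3.73 for the members. Fgf4 and Dppa5a were at -0.62 and -0.84 in KO, against -4.26 and -2.49 in Ctrl. Between KO and Ctrl, 1 was called higher and none lower at d0, 5 and 3 at d4, and 6 and 3 at d6, beside 27.0%, 45.5% and 52.3% of all genes called. The list medians were -0.0038, 0.02 and -0.12 on the log2 scale on the 3 days. At d6 the largest increases in KO were those of Fgf4 (3.42), the ligand that drives ERK signaling in ESCs, Dppa5a (1.59), a naive RNA-binding protein gene, and Nanog (1.42). The study named Dppa5a and Nanog from these samples, so their direction is not independent evidence. The largest decreases were those of Gbx2 (-1.29), Jam2 (-1.03) and Fbxo15 (-0.87). 

 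Of 10 genes shared by the naive and later pluripotent states, 6 were called higher and none lower at d6, with a median log2 FC of 1.85, and the largest were Tdgf1 (3.81), a Nodal co-receptor, Utf1 (3.08) and Pou5f1 (2.68), which encodes Oct4. Of 9 genes of the postimplantation epiblast, 7 were called higher at d4 and 6 at d6 (medians 1.28 and 1.31), led at d6 by Fgf5 (4.89), Otx2 (4.00) and Dnmt3b (3.06), and Sox3 (-1.48) and Sall2 (-1.09) were called lower. Over all genes 12.7% were called higher and 32.7% lower at d4, and 17.9% and 34.3% at d6. Both lists include genes that the study named from these samples, so their direction is not independent evidence.

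Of 9 genes of LIF and STAT3 signaling, the pathway above Klf4, 7 were called lower in KO at d0, 6 at d4 and 5 at d6, against 0, 1 and 2 called higher. Over all genes 16.4%, 32.7% and 34.3% were called lower on these days and 10.6%, 12.7% and 17.9% higher, which also applies to the lists that follow. Socs3, the feedback inhibitor induced by STAT3, was at -0.84, -1.28 and -0.93 on the log2 scale on the 3 days, the receptor gene Il6st at -0.43, -0.55 and -1.15, and Stat3 at -0.41, -0.56 and -0.62. Pim3 (0.88) and Pim1 (0.75), kinase genes of the same list, were higher at d6. Klf4, which this pathway feeds, was called lower at d6 only. Of 11 targets and feedback genes of FGF and ERK signaling, 7 were called higher and none lower at d6 (median 0.99), with Etv5 at 2.61, Spry1 at 1.78 and Spry2 at 1.55, and at d4 2 were higher and 3 lower. Of 8 measured genes of 10 in the list of Wnt and GSK3 signaling, 2 were called higher and 4 lower at d6. Lef1 (1.18) and Tcf7 (0.94) were the higher ones, and Cdx1 was at -2.44. Of 7 measured of 11 factors that promote exit from the naive state, 4 were higher and 1 lower, with Rbpj at 0.91 and Tfe3 at 0.72. Of 6 measured of 10 partners and relatives of the members, 1 was higher and 3 were lower at d6, with Dnmt1 at -0.67, and Uhrf1, the partner of Dppa3, was at -0.11 (adjusted p by limma 0.083).

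**Figure D5:**
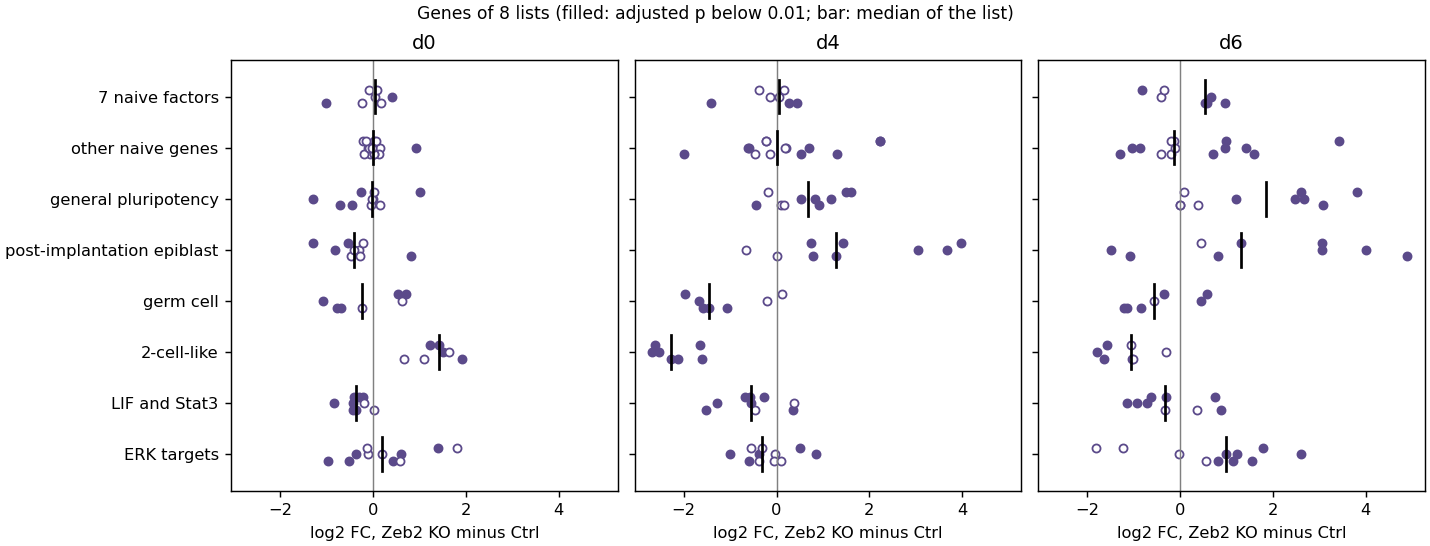
Log2 FC (KO minus Ctrl) at d0, d4 and d6 of the genes of 8 lists, the 7 members among them, with 1 point per gene and a bar at the list median. The members' medians are 0.03, 0.04 and 0.55, those of general pluripotency genes reach 1.85 at d6, and those of the LIF and STAT3 genes are below 0 on all 3 days.

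Because Dppa3 and Prdm14 also mark germ cells, 7 other germ cell genes were examined beside them. Their summed level was 402 to 434 TPM in Ctrl and 173 to 192 TPM in KO at d4, when 5 of the 7 were called lower and none higher in KO, and none was without reads. The largest differences were those of Prdm1 (-1.96), the Blimp1 gene, Nanos3 (-1.67) and Tfap2c (-1.58), beside -1.40 for Dppa3 and -0.13 for Prdm14. At d0 the sums were 318 to 349 and 270.2 to 289 TPM, with 2 genes called higher and 3 lower, and at d6 171 to 182 and 115 to 139 TPM, with 2 higher and 4 lower, when Dppa3 was higher in KO. The part of germ cell markers in the result for Dppa3 was not tested. Markers of the 2-cell-like state, 7 of 9 measured, went the other way from Dppa3 at d0, with 8.93 to 13.7 TPM in Ctrl and 31.7 to 52.8 TPM in KO, and the same way at d4, with 129 to 196 and 24.4 to 29.0 TPM. At d6, when Dppa3 was higher in KO, 4 of these 7 genes were called lower and none higher, with sums of 72.7 to 93.3 TPM in Ctrl and 15.3 to 75.8 in KO that overlapped.

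Markers of differentiated cells also moved with the d6 comparison, most of them in the opposite direction from the 4 members that were higher in KO. All 9 neural genes were called lower in KO at d6, among them Irx3 (-4.31) and Pax6 (-4.29), as were 8 of 9 measured endoderm genes and 3 of 4 measured mesoderm genes, led by Afp (-3.21) and Meox1 (-6.47). The endoderm genes summed to 159.7 to 253 TPM in Ctrl and 50.4 to 78.1 in KO, and the mesoderm genes to 144 to 196 and 12.7 to 17.9 TPM. Meox1 alone made most of the mesoderm sum in Ctrl, with a mean of 153 TPM against 0.721 in KO. Eomes, the fourth mesoderm gene, was called higher in KO at d6, with 2.00 TPM in Ctrl against 9.93 in KO (log2 FC 1.86, adjusted p by limma 1.66e-06). Trophectoderm genes, 5 of 7 measured, were at 1057 to 1644 TPM in Ctrl and 1039.8 to 2047 in KO, with none called higher and 2 lower. Their part in the results for Nr0b1, Esrrb, Zfp42 and Dppa3 was not tested, and Klf4 was lower in KO together with these markers.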

How the data were processed

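RNA from 18 libraries of Ctrl and Zeb2 KO cells was sequenced by the authors as single reads of 36 bases, aligned with TopHat2 2.0.13 to GRCm38, counted per gene with featureCounts 1.4.6 and deposited as TPM. The authors kept genes with at least 5 TPM in at least 3 libraries, removed short noncoding genes and the 20% least variable genes, and made their own tests with DESeq2. The table also holds 3 score columns of variability that the authors computed over all libraries, which were not used. The labels and the methods give different concentrations of both inhibitors of 2i.

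The 11046 entries hold 10965 different genes, and the first entry of each of the 81 repeated ones was kept. Each TPM value is a whole number of reads plus 1, divided by a gene length and scaled (tolerance 1e-06), which gave the reads of all 10965 genes and a median depth of 12131165 reads per library. The model was fitted on log2(TPM + 1), a scale that understates changes of low genes, in R 4.3.3 and limma 3.58.1, with 1 mean for each of 6 groups and eBayes with an intensity trend. Calls required an adjusted p (limma, Benjamini-Hochberg across the 10965 genes) under 0.01. The interaction contrasts subtract the change in Ctrl from that in KO. Python 3.11.15 with pandas 2.3.3, numpy 2.4.6 and matplotlib 3.10.9 served for the sequences and figures. GENCODE M21 placed 10922 genes and gave the transcripts for the shared stretches. The steps were tested on simulated data.

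The members and gene lists were chosen with earlier results of these data known. The genes named are the 7 members in every comparison, at most 3 genes per list, direction and day with the largest change among those called, genes within 250 kb of a member, the 3 genes most like each member and Zeb2. The value of 1 gene that this rule names is not reported here. The values of Dppa3-ps, of markers that do not pass the test and of Uhrf1 were chosen after they were seen. Stat3 is named as well, outside this rule. The alternatives were a pseudocount of 0.1 or 5, a minimum mean of 10 TPM, median-ratio and quantile normalization, limma voom on the recovered reads, a fit to only the groups compared, a replicate block, eBayes with no trend, a looser adjusted threshold of 0.05, a fold rule (log2 FC beyond 1 in either direction with unadjusted p < 0.01), subtraction of the median of genes within 5 Mb, and each library left out in turn.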

Additional observations from a re-analysis of the deposited data

Results flagged for a closer look

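The change over time between some of the days was called different in Zeb2 KO and Ctrl cells for 5 members (limma interaction contrast, adjusted p below 0.01 over all genes). Of all genes, 36.1% were called from d0 to d4, 43.7% from d0 to d6 and 13.4% from d4 to d6. The d4 to d6 contrast was added after the data were seen. All values are the change in KO minus the change in Ctrl on the log2 scale. From d0 to d4, Nr0b1 differed by 0.69 (adjusted p 0.00604), as it fell by 0.62 in KO and by 1.31 in Ctrl. From d0 to d6, the differences were 1.59 for Dppa3 (adjusted p 9.89e-06), 1.21 for Nr0b1 (4.68e-05), 0.37 for Zfp42 (0.00836) and -0.75 for Klf4 (0.00297). From d4 to d6, they were 1.98 for Dppa3 (adjusted p 4.39e-06), which fell by 1.72 in Ctrl and was at 0.27 in KO, -0.98 for Klf4 (0.00121) and 0.63 for Esrrb (0.00477). Among these called differences, those of Klf4 are the only ones in which the gene fell more in KO. Of 30 other settings, 13 lost the call of Zfp42 and 5 that of Klf4 from d0 to d6. The call of Nr0b1 from d0 to d4 was lost in 8. From d4 to d6, that of Esrrb was lost in 9 and that of Klf4 in 1.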

How the results depend on the processing

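Under the 12 alternatives that keep all libraries, 141 counts of called members stayed within 1.5 times the reported one and 13 did not. Between KO and Ctrl at d0 (2 called), 1 was called with quantile normalization, with regional medians subtracted and with the fold rule (log2 FC beyond 1 in either direction, unadjusted p < 0.01). At d4 (3 called), 1 was called in the fit to only the groups compared, with eBayes without trend and with the fold rule. At d6 (5 called), the fold rule called 0 members, while by limma all 7 had an unadjusted p under 0.05 and voom called 5. The fold rule also left 4 of 7 lower at d4 than at d0 in KO, and called 0 (in place of 1), 2 (of 4) and 1 (of 3) differences in change from d0 to d4, d0 to d6 and d4 to d6. From d0 to d4, 3 members had an unadjusted p under 0.05 by limma and voom called 1. Regional subtraction called 2 differences from d0 to d4, and quantile normalization 5 from d4 to d6. Leaving out 1 library at a time gave 1 to 2 calls at d0, 1 to 3 at d4, 4 to 5 at d6, 0 to 1 from d0 to d4, 3 to 4 from d0 to d6, 2 to 3 from d4 to d6 and 3 to 4 in the F test, and changed no count of falls over time.

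Values that changed sign were those of members that were not called, apart from Esrrb at d0. With regional medians subtracted, Esrrb at d0 went from 0.40 to -0.17, Zfp42 at d0 to -0.16, Prdm14 at d0 to -0.035, the difference in change from d0 to d4 of Esrrb to 0.50 (adjusted p by limma 0.0150) and of Dppa3 to 0.029, and that of Tbx3 from d4 to d6 to -0.017. The last was -0.0017 with a pseudocount of 0.1 and -0.0079 with voom. Prdm14 at d4 was 0.039 with median-ratio rescaling and 0.017 with quantile normalization. Over the fits without 1 library, Klf4 at d0 ranged from -0.13 to 0.0054, Tbx3 at d0 from -0.0074 to 0.13, Prdm14 at d0 from -0.015 to 0.064, Esrrb at d4 from -0.060 to 0.14 and the d4 to d6 difference of Tbx3 from -0.098 to 0.18. Apart from the regional subtraction, whose construction removes shifts shared by a region, as on chromosomes 8, 12 and 6 at d0, the cause was not tested.

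The replicate numbers were not taken to pair the samples, which required a correlation above 0.1 in every pair. Over 9 pairs of libraries with the same number and day, the deviations from the group means correlated at -0.077 to 0.23, above 0.1 in the 6 pairs of replicates 1 and 2 and below it in those of replicate 3, and 10 of 18 pairs of the same number across days were above 0.1. With the replicate block 2 members were called at d4 in place of 3, as Nr0b1 had an adjusted p by limma of 0.0118 (log2 FC 0.45), and no other count changed.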

Other observations

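Genes with the course most like that of each member were sought among all genes of the table by Pearson r of log2(TPM + 1) over the 18 libraries, which share the 6 groups, so that r is a description of the common fall. Klf4 was most like Jam2 (0.996), a junction protein gene, Spp1 (0.994) and Pcsk6 (0.994), and Tbx3 most like Tfcp2l1 (0.992), a naive transcription factor gene, Klf8 and Rfx2 (both 0.990). Prdm14 was most like Nr5a2 (0.997), a nuclear receptor gene, Klf5 (0.990) and Cdyl2 (0.988). Zfp42, Esrrb and Nr0b1 were close to each other, with 0.994 between Zfp42 and Esrrb and 0.992 between Zfp42 and Nr0b1, and all 3 were close to Dennd2c (0.986 to 0.988). Tcl1 (0.987) was next to Esrrb and Fzd5 (0.992), a Wnt receptor gene, to Nr0b1. Dppa3 had no gene as close, with Trpa1 at 0.9747, Dppa3-ps at 0.971 and Tesk2 at 0.968.

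Over the 21 pairs of members r was 0.729 to 0.994, with a median of 0.890, and 340 further genes had an r above 0.9 with the mean profile of the 7. The 10 closest to that profile were Cdyl2 (0.993), Jade1, Klf5, Krt42, Nr5a2, Kat6b, Rpp25, Klf2, Cobl and Arid5b (0.984). The naive factor genes Klf2, Klf5 and Nr5a2 among them were not called between KO and Ctrl at d6, with log2 FC of -0.12, -0.20 and -0.19, values chosen after they were seen.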
